A study of Homo sapiens with 12 samples.

Results

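The MHC class I and peptide loading genes described here were 9 listed symbols of the 24559 gene symbols with a count. They were the heavy chain genes HLA-B, HLA-C, HLA-E and HLA-F, the light chain gene B2M, the peptide transporter genes TAP1 and TAP2, the loading gene TAPBP and the regulator gene NLRC5. They were measured as polysome-associated RNA in 3 established human triple-negative breast cancer (TNBC) cell lines, in 12 libraries that formed 6 groups of 2. MDA-MB-231 and SUM159 cells carried either a control construct (EV) or an shRNA against TRMT112 (KD), and BT549 cells carried an empty vector (EV) or a TRMT112 expression clone (OE). TRMT112 is the partner protein that several RNA and protein methyltransferases need for activity. The labels call the KD controls EV, whereas the study's methods name a non-silencing shRNA in the same backbone. KD cells and their controls were selected with puromycin, and OE cells and their controls with G418. Drug and line are thus shared within each comparison of KD or OE with its EV. The line differs between these comparisons, and the drug differs between BT549 and both KD lines. SUM159 medium held insulin and hydrocortisone, MDA-MB-231 medium did not, and BT549 cells grew in a different basal medium. No source used here says whether the 2 libraries of a group came from separate cultures, so the p-values measure only the spread between these libraries, which may be technical.

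MHC class I molecules carry peptides from inside the cell to its surface, where CD8 T cells inspect them. A heavy chain folds in the endoplasmic reticulum together with beta-2-microglobulin, the product of B2M. TAP1 and TAP2 form the pump that brings peptides in from the cytosol, and tapasin, the product of TAPBP, holds the empty heavy chain against that pump until a peptide fits. HLA-B and HLA-C are classical, highly variable heavy chains, HLA-E presents leader peptides to receptors of NK cells, and HLA-F is a low-abundance nonclassical chain. NLRC5 is the transactivator of class I genes, and interferon raises its level along with the others.

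The libraries held between 22954226 and 27434677 expected counts. TRMT112 moved as the labels say, being 2.35-fold lower in MDA-MB-231 KD, 1.70-fold lower in SUM159 KD and 1.40-fold higher in BT549 OE. BT549 OE stood far from its own control: 31.3% of the 16538 genes tested were called and differed by at least 2-fold, against 36.9% to 45.4% between the control groups of different lines. Whether the BT549 EV and OE libraries come from the same line was not tested, and every BT549 OE value below is read with that limit. Markers of other cell types moved there too. The summed normalized count of 7 fibroblast markers was 2056 to 2060 in BT549 EV and 68851 to 70765 in BT549 OE, with 6 of the 7 higher and 3 of them at 0 in EV. The sum of 13 leukocyte markers, of which 6 had a count, was 22.1 to 25.2 in BT549 EV and 96.3 to 99.6 in BT549 OE, and 20.2 to 37.4 in the other groups. Of these markers 2 were tested, and only CD14 was called, higher in BT549 OE, with means of 13.2 in EV and 88.5 in OE. The rise of the sum was thus mostly CD14. The other markers with a count had means of at most 5.51 in either BT549 group. PTPRC (5.51 and 3.35) and CSF1R (3.30 and 0.554) were lower in OE, and CD79A, FCER1G and LYZ were higher. Epithelial markers were at a sum of 85.3 to 94.2 in BT549 EV and 41.9 to 43.2 in BT549 OE, with 2 of the 5 lower and 3 not called. Both BT549 groups were thus low, the sum being 9642.5 to 18157 in the other groups. In MDA-MB-231 the fibroblast sum was 319 to 355 for EV and 680 to 751 for KD, but only 1 of the 7 markers was called (higher) and the median log2 fold change was 0.03. That marker was PDGFRB, named after its values were seen, with a mean of 224 for EV and 585 for KD. In SUM159 the sum was 8098 to 8146 for EV and 9886 to 10042 for KD, while 4 of the 7 markers were lower and 1 higher, with a median of -1.41. The higher one was COL1A1, at means of 7448 and 9751, and COL3A1 (301 and 75.0) and PDGFRA (56.4 and 4.18) were among the lower ones. The part of these markers in the results was not tested.

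Of the 9 genes, 7 lie within the MHC on chromosome 6, B2M lies on chromosome 15 and NLRC5 on chromosome 16. In GRCh38 with the GENCODE 44 annotation, HLA-F spans chr6:29722775-29738528 on the plus strand, HLA-E chr6:30489509-30494194 on the plus strand, HLA-C chr6:31268749-31272130 on the minus strand and HLA-B chr6:31353872-31367067 on the minus strand. TAP2 spans chr6:32821833-32838739, TAP1 chr6:32845209-32853816 and TAPBP chr6:33299694-33314284, all on the minus strand. B2M spans chr15:44711358-44718851 and NLRC5 chr16:56989485-57083531, both on the plus strand.

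Promoter sequences of these genes are given as background, and their part in the changes below was not tested. Class I promoters are known to hold a site for NF-kB, an interferon-stimulated response element (ISRE) for factors of the IRF family, a CRE-like site and a Y box (CCAAT) through which RFX, CREB/ATF and NF-Y factors recruit NLRC5. RefSeq promoters (GRCh38.p14) of 300 bases, from 250 before to 50 after the start, were matched for 7 of the 9 genes. HLA-E and NLRC5 had no entry. The lines below give 160 bases, from -200 to -41 of the RefSeq start and 5′ to 3′ on the gene's strand. Capitals mark matches on either strand to any of 5 sets of letters. The NF-kB letters were GGG, any 2 bases, TT, any base and CC. The ISRE was searched in 2 spacings, the wider being GAAA, any 2 bases and GAAA, and the narrower GAA, any 2 bases and GAAA. The CRE-like letters were TGACGC, and the Y box letters CCAAT.
HLA-B, chr6:31357220-31357379, minus strand: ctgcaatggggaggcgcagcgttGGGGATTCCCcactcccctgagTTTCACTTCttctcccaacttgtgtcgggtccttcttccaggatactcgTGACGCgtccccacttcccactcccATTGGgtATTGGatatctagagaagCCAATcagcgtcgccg
HLA-C, chr6:31272133-31272292, minus strand: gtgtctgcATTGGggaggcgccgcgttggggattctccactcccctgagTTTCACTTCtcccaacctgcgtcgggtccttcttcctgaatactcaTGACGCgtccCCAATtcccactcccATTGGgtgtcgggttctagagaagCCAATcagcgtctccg
HLA-F, chr6:29723234-29723393, plus strand: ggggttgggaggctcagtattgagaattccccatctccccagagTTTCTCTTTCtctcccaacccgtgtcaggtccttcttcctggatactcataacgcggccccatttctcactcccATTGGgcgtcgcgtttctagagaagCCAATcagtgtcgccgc

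The light chain, transporter and loading genes carried the ISRE letters at other distances. For these genes 60 bases around the match are given, with only the ISRE letters in capitals. TAP1 has 2 entries in the table, and the upstream one is shown.
B2M, chr15:44711351-44711410, plus strand: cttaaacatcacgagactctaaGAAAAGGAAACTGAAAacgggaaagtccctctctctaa
TAP1, chr6:32853801-32853860, minus strand: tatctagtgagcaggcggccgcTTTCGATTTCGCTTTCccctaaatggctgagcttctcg
TAP2, chr6:32838766-32838825, minus strand: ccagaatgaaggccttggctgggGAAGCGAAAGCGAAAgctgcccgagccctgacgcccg
TAPBP, chr6:33314079-33314138, minus strand: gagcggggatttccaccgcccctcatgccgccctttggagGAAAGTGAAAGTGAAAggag

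All 7 genes held at least 1 of the ISRE spacings in a promoter. Of the 35116 promoters of that length in the table, 10.6% did. Genes were counted by a match in any entry and the background by promoter, so these shares differ in unit. For TAP1 every match was in the upstream entry, and the other entry had no match to any of the sets of letters. The wider spacing was found for HLA-F, B2M, TAP1, TAP2 and TAPBP (3.57% of all promoters), and the narrower for HLA-B, HLA-C and TAP2 (7.66%). In B2M, TAP1 and TAPBP 2 matches overlap by 4 letters, and in TAP2 the spacings overlap each other. The match began at -155 in HLA-B, -151 in HLA-C and -156 in HLA-F, and at -20 in TAPBP. NF-kB letters were present for HLA-B, B2M, TAP1 and TAPBP (5.68% of all promoters), the CRE-like letters for HLA-B, HLA-C and TAP2 (9.14%), and CCAAT for HLA-B, HLA-C, HLA-F, B2M and TAP1 (34.6%). These are matches of letters in the reference, not sites measured in these cells. The GENCODE extents of HLA-B, HLA-F, B2M, TAP1 and TAPBP reach into or past these stretches, since transcripts with earlier starts are annotated.

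The highest level of 8 of the 9 genes was in BT549 EV, and the lowest level of 6 of them was in BT549 OE. Together they took 1.03% to 1.04% of all counts in BT549 EV and 0.146% to 0.147% in BT549 OE. In the other groups the share ran from 0.178% to 0.360%. Levels are given as normalized counts, the count of a library divided by its scaled size relative to the mean library. The plot of normalized counts by library shows that replicates lay close together, so that the groups rather than the libraries set the range.

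**Figure D1:**
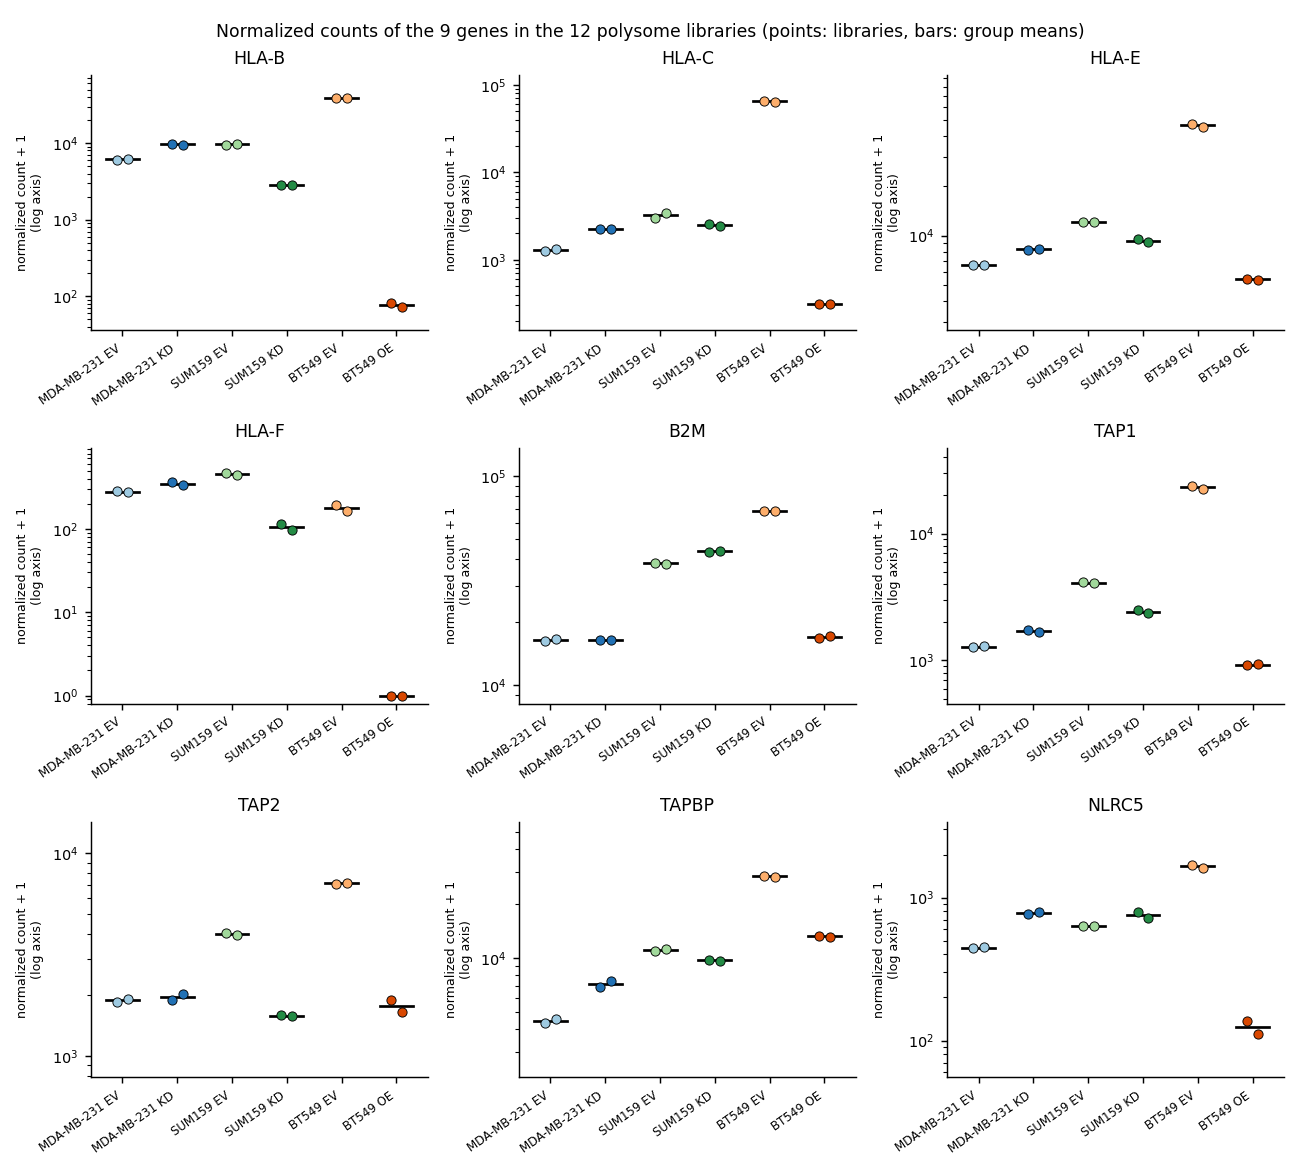
Normalized count plus 1 (log axis, a separate range per panel) of each of the 9 genes in the 12 libraries, by group on the horizontal axis. Points are the 2 libraries of a group and bars their mean. BT549 EV is the highest group in every panel but that of HLA-F, and the 2 BT549 OE libraries hold 0 counts of HLA-F.

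Overexpression of TRMT112 in BT549 was compared with the empty vector to ask which mRNAs gain or lose polysome association. All 9 genes were lower in BT549 OE, and all by at least 2-fold, with a median log2 fold change of -3.75 against 0.02 over all genes tested. Over all genes, 70.6% were called in this comparison, 35% lower, and 15.2% lower by at least 2-fold. The classical heavy chains HLA-B and HLA-C were reduced by over 2 orders of magnitude, whereas tapasin mRNA was about 2-fold lower. In bulk libraries, fewer cells of a type and less RNA per cell cannot be told apart. No total RNA was sequenced, so polysome loading and mRNA amount cannot be told apart either.

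HLA-B had 38282 and 39223 normalized counts in BT549 EV and 79.7 and 71.3 in BT549 OE. HLA-C had 65674 and 63851 in EV and 312.3 and 312.4 in OE. No OE library came near an EV library for either gene. The log2 fold change was -9.00 ± 0.054 (SE) for HLA-B, a 512-fold lower level (adjusted p = 1.06e-31), and -7.70 ± 0.058 for HLA-C, a 207-fold lower level (adjusted p = 3.15e-30). Ranked by log2 fold change among all genes tested, HLA-B stood at the percentile 0.266 from the bottom.

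The nonclassical chains behaved unequally. HLA-E kept 5498 and 5355 normalized counts in OE against 47371 and 45801 in EV, a log2 fold change of -3.10 ± 0.030 (adjusted p = 3.72e-28). HLA-F was counted 176 and 145 times in the EV libraries and 0 times in both OE libraries. Against a floor of 3 counts per library it was at least 52.6-fold lower (adjusted p = 3.36e-14). With HLA-F set to that bound the median of the 9 genes was again -3.75.

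B2M, whose product pairs with every class I heavy chain, had 68068 and 67817 normalized counts in EV and 16895 and 17119 in OE. That was 4.00-fold lower (log2 fold change -2.00 ± 0.023, adjusted p = 1.10e-26). The transporter genes fell by different amounts. TAP1 had 23585 and 22644 in EV and 911 and 929 in OE, a 25.1-fold lower level (log2 fold change -4.65 ± 0.041, adjusted p = 6.92e-29), and TAP2 had 7057 and 7170 in EV and 1879 and 1648 in OE, a 4.03-fold lower level (log2 fold change -2.01 ± 0.048, adjusted p = 7.40e-21).

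TAPBP had 28503 and 28048 normalized counts in EV and 13231 and 13069 in OE, a 2.15-fold lower level (log2 fold change -1.10 ± 0.032, adjusted p = 4.66e-19). The transactivator gene NLRC5 had 1698 and 1607 in EV and 136.2 and 109.8 in OE, a 13.4-fold lower level (log2 fold change -3.75 ± 0.091, adjusted p = 1.20e-20). The EV and OE libraries did not overlap for any of the 9 genes. The share of all genes without overlap was not counted, and 70.6% of all genes were called in this comparison. The part in these differences of the fibroblast marker genes, which were higher in BT549 OE as given above, was not tested.

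Knockdown in MDA-MB-231 was compared with its control to ask for the opposite manipulation. Of the 9 genes 7 were higher in KD and none was called lower, with a median log2 fold change of 0.41 against 0 over all genes. In this comparison 37.7% of all genes tested were called, 21.2% higher and 16.5% lower. No member reached 2-fold, against 3.2% of all genes in either direction and 1.6% in the higher one. The changes were thus common in direction and small in size.

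HLA-C had 1245 and 1341 normalized counts in MDA-MB-231 EV and 2232 and 2275 in KD, a 1.74-fold higher level (log2 fold change 0.80 ± 0.051, adjusted p = 2.33e-11). HLA-B had 6027 and 6175 in EV and 9777 and 9443 in KD, 1.58-fold higher (0.66 ± 0.030, adjusted p = 9.23e-14). TAPBP rose from 4346 and 4589 to 6860 and 7408 (0.67 ± 0.035, adjusted p = 8.45e-13). These 3 genes and NLRC5 showed the larger changes, and in each case both KD libraries lay above both EV libraries. The share of all genes that did so was not counted. NLRC5 had 441.2 and 451.1 in EV and 761.6 and 792.0 in KD (0.80 ± 0.075, adjusted p = 1.16e-08).

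TAP1 rose less, from 1264 and 1292 to 1726 and 1667 (0.41 ± 0.044, adjusted p = 9.84e-08), and HLA-E from 6676 and 6602 to 8241 and 8322 (0.32 ± 0.029, adjusted p = 8.08e-09). HLA-F had 281.3 and 274.9 in EV and 362.6 and 330.5 in KD (0.32 ± 0.114, adjusted p = 0.0321). Its call was lost without EV replicate 1 (adjusted p = 0.0968), without EV replicate 2 (0.133) and without KD replicate 1 (0.221), and with the Wald test of DESeq2 (adjusted p = 0.0543). By the edgeR test it was also lost with library size only (adjusted p = 0.124) and with the most abundant transcript alone (0.402). B2M and TAP2 were not called. B2M had 16352 and 16613 in EV and 16421 and 16450 in KD, and TAP2 had 1846 and 1918 in EV and 1881 and 2015 in KD, so that the ranges overlapped for both (adjusted p = 0.937 and 0.489). Scaled by library size only, B2M had a log2 fold change of -0.09 (adjusted p = 0.00179).

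Knockdown in SUM159 gave a mixed result. Of the 9 genes 7 were lower and 2 higher in KD, with a median log2 fold change of -0.38 against 0 over all genes. In SUM159 60.1% of all genes were called, 31.4% lower and 28.6% higher. HLA-B, HLA-F and TAP2 were at least 2-fold lower, a size reached in that direction by 8.39% of all genes. No member was at least 2-fold higher, as 7.28% of all genes were, and 15.7% of all genes passed that size in either direction.

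HLA-F had 464.3 and 437.3 normalized counts in SUM159 EV and 112.9 and 96.0 in KD, 4.33-fold lower (log2 fold change -2.11 ± 0.129, adjusted p = 2.22e-12). HLA-B had 9457 and 9779 in EV and 2875 and 2809 in KD, 3.39-fold lower (-1.76 ± 0.032, adjusted p = 3.87e-22). TAP2 fell from 4047 and 3934 to 1593 and 1569, 2.52-fold lower (-1.34 ± 0.048, adjusted p = 7.53e-17). TAP1, the other subunit of the transporter, fell from 4127 and 4088 to 2494 and 2352, 1.70-fold lower (-0.76 ± 0.037, adjusted p = 1.76e-14).

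The remaining heavy chains and tapasin changed by smaller amounts. HLA-C had 3009 and 3402 normalized counts in EV and 2548 and 2405 in KD (-0.37 ± 0.046, adjusted p = 1.69e-07). HLA-E had 12102 and 12115 in EV and 9517 and 9132 in KD (-0.38 ± 0.028, adjusted p = 4.22e-11). TAPBP had 10863 and 11198 in EV and 9743 and 9585 in KD (-0.19 ± 0.033, adjusted p = 2.50e-05). KD libraries lay below EV libraries for all 3, but the share of all genes that did so was not counted. The HLA-C call was lost when its most abundant transcript was tested alone (-0.32, adjusted p = 0.0572).

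B2M and NLRC5 were higher in SUM159 KD. B2M had 38533 and 38013 in EV and 43587 and 43868 in KD, 1.14-fold higher (0.19 ± 0.022, adjusted p = 6.81e-08). NLRC5 had 628.8 and 627.3 in EV and 786.3 and 720.4 in KD, 1.20-fold higher (0.26 ± 0.072, adjusted p = 0.00329). The NLRC5 call was lost without SUM159 KD replicate 1, at a log2 fold change of 0.20 (adjusted p = 0.0580). NLRC5 was the only member called higher in both KD lines and lower in OE, a pattern of 3.83% of all genes tested. In SUM159 KD the 7 members other than NLRC5 and B2M were all lower.

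**Figure D2:**
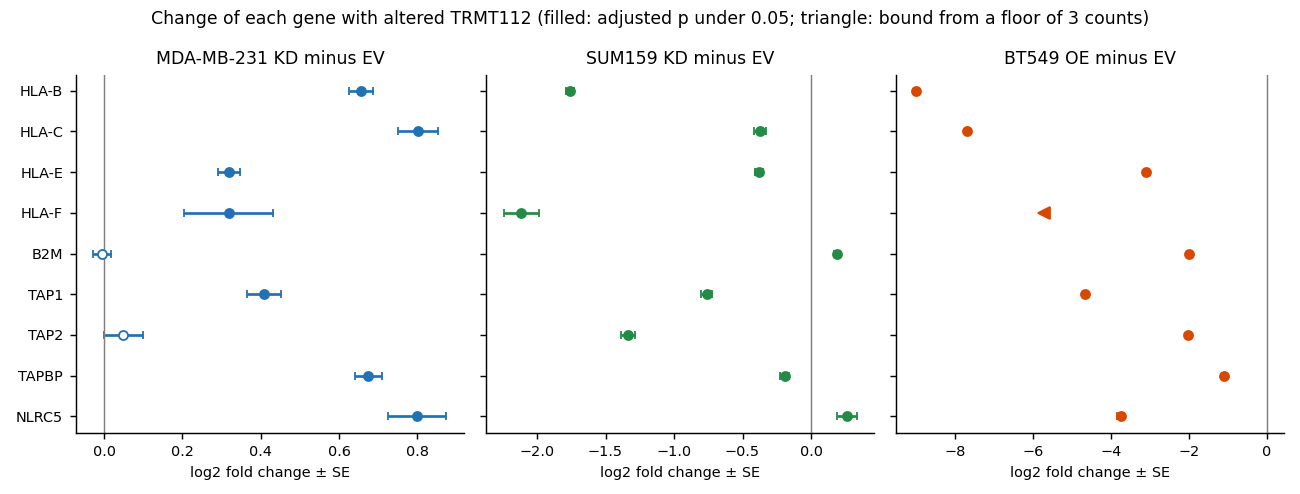
Log2 fold change with its SE (horizontal axis, a separate range per panel) of each gene in the KD or OE group against the EV group of the same line. Filled points passed an adjusted p of 0.05, and the triangle is the bound for HLA-F. Filled points lie right of 0 for 7 genes in MDA-MB-231 and left of 0 for 7 genes in SUM159. In BT549 all 9 genes lie left of 0.

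The KD effect differed between MDA-MB-231 and SUM159 for all 9 genes when the difference itself was tested, as it did for 50.9% of all genes (27.7% with the higher effect in MDA-MB-231 and 23.2% with the lower). The MDA-MB-231 effect was the higher for 8 genes, by 0.54 (NLRC5) to 2.43 (HLA-F) on the log2 scale, and by 2.41 ± 0.044 for HLA-B (adjusted p = 1.48e-21). For B2M the SUM159 effect was the higher, by a difference of -0.20 ± 0.032 (adjusted p = 1.48e-05). The difference was at least 2-fold for HLA-B, HLA-C, HLA-F, TAP1 and TAP2, against 15% of all genes. HLA-B, HLA-C, HLA-E, HLA-F, TAP1 and TAPBP were called in opposite directions, up with KD in MDA-MB-231 and down with KD in SUM159, a combination shown by 7.37% of all genes. TRMT112 itself was lowered by different amounts in these lines (log2 fold change -1.23 ± 0.041 and -0.76 ± 0.037).

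Levels of different genes were compared per length, as TPM, which divides each transcript's count by its annotated length and scales every library to the same total. B2M was the most abundant member in every group but had a lower TPM than the 4 heavy chain genes together in BT549 EV. It ranked 11 among 24559 symbols in BT549 EV, 17 in SUM159 EV and 117 in BT549 OE. NLRC5, at 2.01 to 23.5 TPM, and HLA-F, at 0 to 27.05 TPM, were the scarcest in the group means.

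The summed TPM of HLA-B, HLA-C, HLA-E and HLA-F was higher with KD in MDA-MB-231, at 660 and 672 for EV against 926 and 918 for KD. In SUM159 the KD sums of 509 and 495 lay below the EV sums of 1002 and 1023. BT549 EV held 5664 and 5631 TPM of these genes, and BT549 OE held 159.7 and 159.2, which is 35.4-fold lower. EV and KD or OE libraries did not overlap in any line. The sums were not tested.

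The make-up of that sum changed as well. HLA-C gave 49.0% ± 0.49 (SD, n = 2) of it in BT549 EV and 8.37% ± 0.01 in BT549 OE, where HLA-E gave 89.6% ± 0.10. HLA-B gave 51.3% in MDA-MB-231 EV and 54.7% in KD. In SUM159 the share of HLA-B was 46.2% ± 0.01 in EV and 25.3% ± 0.34 in KD, and HLA-E took the largest share in KD with 51.4% ± 0.17. HLA-F never exceeded 3.02% in a library.

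Because B2M moved less than its partners, its ratio to them shifted. The TPM of B2M over the summed TPM of the 4 heavy chain genes reached 7.46 and 7.72 in BT549 OE, against 0.855 and 0.858 in its control. SUM159 KD had ratios of 6.47 and 6.74, and its control 3.18 and 3.03. MDA-MB-231 went the other way, with 2.35 and 2.32 for EV and 1.57 and 1.60 for KD. The ratio of TAP1 to TAP2 in TPM was 3.73 ± 0.17 in BT549 EV and 0.66 ± 0.07 in OE, 1.54 ± 0.05 in SUM159 EV and 2.42 ± 0.01 in KD, and 1.04 ± 0.01 in MDA-MB-231 EV and 1.20 ± 0.10 in KD (SD, n = 2). Only these 4 heavy chain genes entered the sums.

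**Figure D3:**
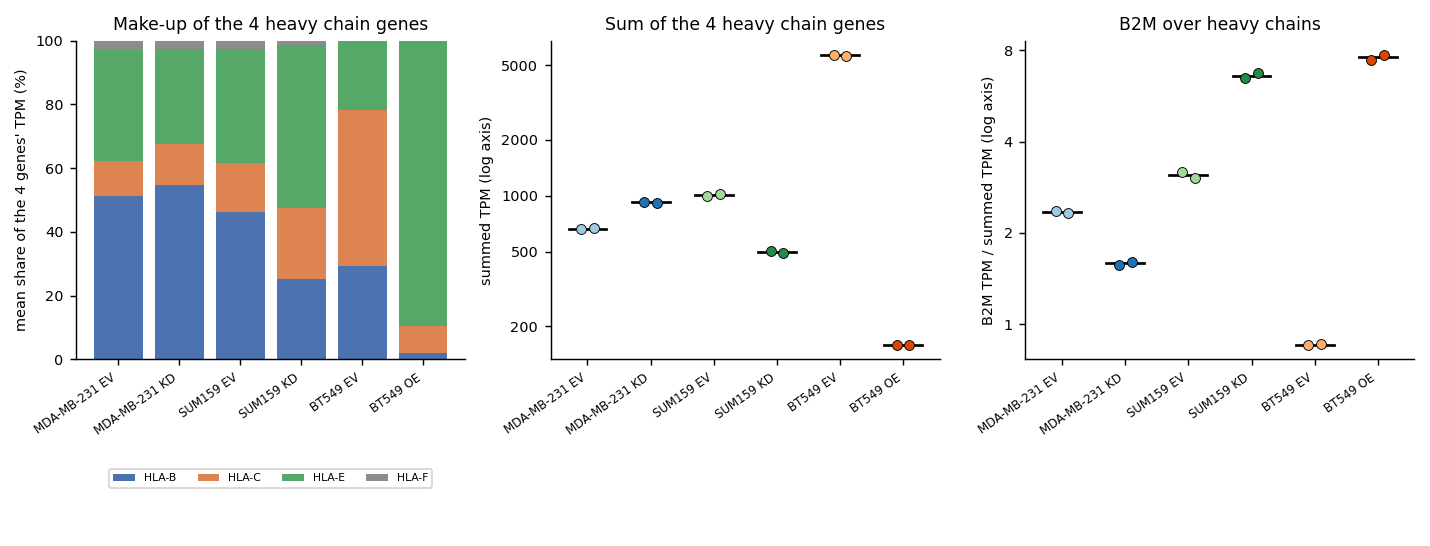
Left, mean share in percent of HLA-B, HLA-C, HLA-E and HLA-F in their summed TPM by group. Middle and right, that sum and the ratio of B2M to it (log axes), with points for the 2 libraries of a group and bars for their mean. HLA-E makes up 89.6% of the sum in BT549 OE, where the sum is lowest and the B2M ratio highest.

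When the 6 groups were ordered by mean normalized count, 39 of the 45 neighbouring pairs over the 9 genes were called and 6 were not. Over all genes, 37.7% were called between the MDA-MB-231 groups, 60.1% between the SUM159 groups and 70.6% between the BT549 groups. Between lines the shares were 75.7%, 78%, 79.5% and 81.2% for pairs with MDA-MB-231 EV, 76.2%, 77.9%, 78.7% and 81.1% for pairs with MDA-MB-231 KD, and 78.4%, 77.9%, 79% and 77.1% for pairs of SUM159 with BT549. HLA-B ran from BT549 EV through SUM159 EV, MDA-MB-231 KD, MDA-MB-231 EV and SUM159 KD to BT549 OE, and SUM159 EV and MDA-MB-231 KD did not differ beyond their spread (adjusted p = 0.987). HLA-C, HLA-E and TAP1 shared the order BT549 EV, SUM159 EV, SUM159 KD, MDA-MB-231 KD, MDA-MB-231 EV, BT549 OE, with every neighbour called. HLA-F differed in having its highest level in SUM159 EV, followed by MDA-MB-231 KD, MDA-MB-231 EV, BT549 EV, SUM159 KD and BT549 OE.

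B2M was ordered BT549 EV, SUM159 KD, SUM159 EV, BT549 OE, MDA-MB-231 EV and MDA-MB-231 KD, and the test called neither BT549 OE against MDA-MB-231 EV (adjusted p = 0.0755, although their ranges did not overlap) nor MDA-MB-231 EV against KD (adjusted p = 0.937). TAP2 was ordered BT549 EV, SUM159 EV, MDA-MB-231 KD, MDA-MB-231 EV, BT549 OE and SUM159 KD, and MDA-MB-231 EV was not told apart from MDA-MB-231 KD (adjusted p = 0.489) or from BT549 OE (adjusted p = 0.103). TAPBP was the member with BT549 OE second from the top, above SUM159 EV, SUM159 KD, MDA-MB-231 KD and MDA-MB-231 EV. NLRC5 was ordered BT549 EV, MDA-MB-231 KD, SUM159 KD, SUM159 EV, MDA-MB-231 EV and BT549 OE, and its KD groups were not told apart (adjusted p = 0.554). From the highest to the lowest group the mean normalized count spanned 513-fold for HLA-B, 207-fold for HLA-C and 25.1-fold for TAP1, but 4.13-fold for B2M and 4.50-fold for TAP2.

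The control groups alone showed how far the lines differ. BT549 EV exceeded MDA-MB-231 EV for 8 of 9 genes and SUM159 EV for 8 of 9, HLA-F being lower in both, and MDA-MB-231 EV was below SUM159 EV for all 9. Of all genes, 79.5% were called in the first comparison (39.1% higher and 40.4% lower), 78.4% in the second (37.7% and 40.7%) and 75.7% in the last (39.2% lower). With a 2-fold size rule these shares were 45.4%, 43.7% and 36.9%. Between BT549 EV and MDA-MB-231 EV, HLA-C showed the widest gap of the members, 50.1-fold, followed by TAP1 with 18.1-fold. Scaling by library size only shifts the median of all genes by -0.31 and -0.21 in the comparisons with BT549 EV and changed no member's call there. Class I heavy chain genes vary in sequence between people and hence between lines, and what reads lost against the reference sequence do to levels between lines was not tested. The 2 comparisons with BT549 EV share that group. Medium differs between the lines, and the selection drug differs between BT549 and both KD lines. Neither can be told apart from the line.

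The counts were divided by the authors' software among annotated transcripts, so transcript shares are estimates. For HLA-B, HLA-C, HLA-E, HLA-F, B2M and TAP1 a protein-coding transcript held 86.0% to 98.7% of the counts pooled over all libraries. Single libraries could lie lower, as for HLA-C-201 (47.8% and 55.6% in SUM159 EV) and HLA-F-217 (57.9% and 80.4% in SUM159 KD). TAP2, TAPBP and NLRC5 were spread over several, the main one holding 36.6%, 45.3% and 35.4%.

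HLA-C showed the clearest difference between lines. The transcript HLA-C-202, annotated as a target of nonsense-mediated decay (NMD), held 40.2% and 46.1% of HLA-C counts in the SUM159 EV libraries and 39.8% to 41.1% in SUM159 KD. Its share was 2.13% to 2.53% in MDA-MB-231 EV and 0.889% to 0.904% in BT549 EV. HLA-B-257, also annotated as an NMD target, held 6.94% to 8.29% of HLA-B in SUM159 EV and 0.091% to 0.171% in MDA-MB-231 EV. In BT549 it held 0.954% to 2.45% in EV and 8.05% to 18.1% in OE, where HLA-B had only 63 to 72 counts. Within SUM159 the ranges of both shares overlapped between EV and KD. What the lines' own HLA sequences do to these estimated shares was not tested.

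Transcript make-up differed between EV and KD or OE for the loading genes. TAPBP-234 held 52.9% to 53.9% of TAPBP in SUM159 EV and 33.1% to 34.3% in KD, and 52.4% to 53.6% in BT549 EV and 30.7% to 34.4% in OE. In MDA-MB-231 its share was 37.3% to 41.4% in EV and 45.7% to 48.8% in KD. TAP2-208 held 27.5% to 28.0% of TAP2 in SUM159 EV and 20.0% to 20.4% in KD. These shares are given as a description and were not tested. For NLRC5 the replicates of a group could lie far apart, its main transcript holding 10.7% in one control library of MDA-MB-231 and 31.0% in the other, and none of its comparisons with KD was called when that transcript was tested alone.

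**Figure D4:**
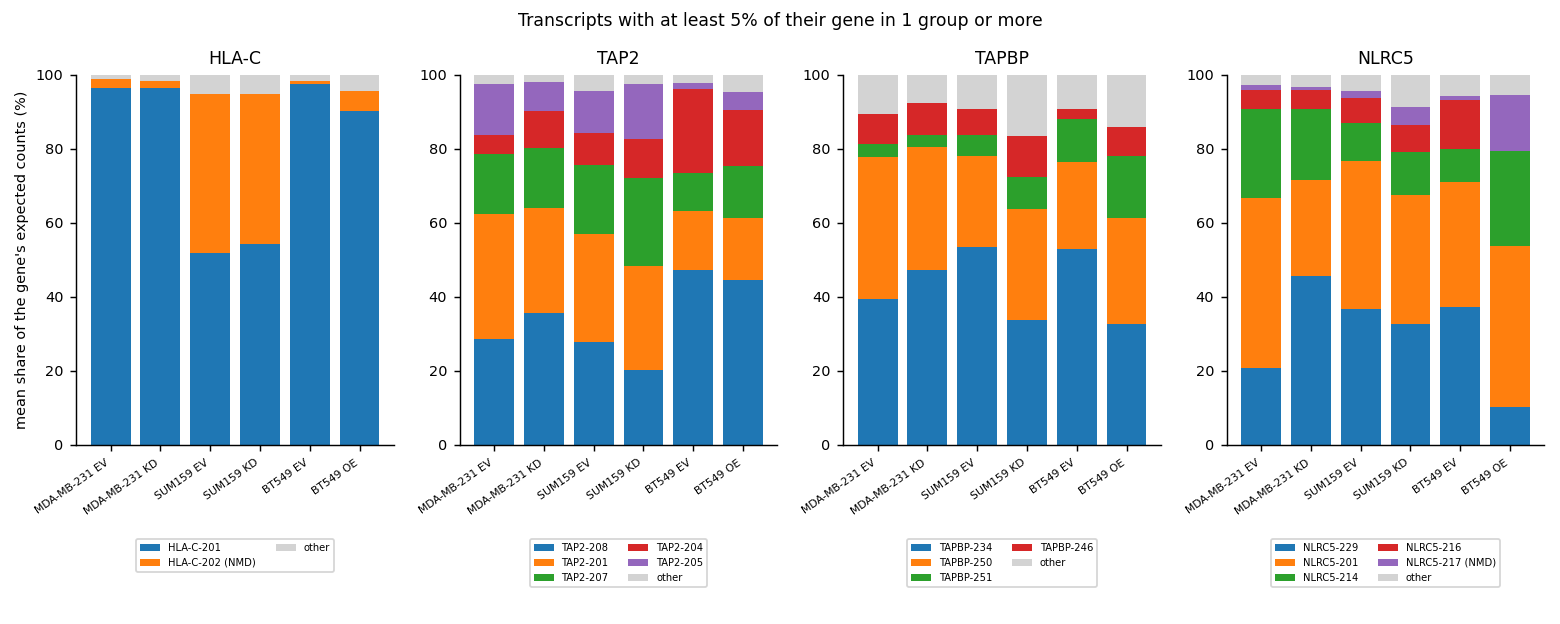
Mean share in percent of each gene's expected counts held by its transcripts, by group, for HLA-C, TAP2, TAPBP and NLRC5. NMD marks transcripts annotated as targets of nonsense-mediated decay, and grey holds all transcripts under 5% in every group. The HLA-C-202 segment is wide in the SUM159 groups (43.1% and 40.4%) and thin elsewhere.

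Reads shared between genes limit single values. Of the 100-base windows of the main HLA-B and HLA-F transcripts, 0% occurred in a transcript of another gene, and the share was 0.277% for HLA-C and 0.612% for HLA-E, for the reference sequence. Shorter stretches are shared more widely among HLA genes, so their separate levels remain uncertain where the lines' own sequences depart from the reference. TAP2 was the exception, with 76.6% of its windows also in an overlapping annotated gene without a symbol (ENSG00000250264), which held 103 to 1011 counts per library against 1456 to 6475 for TAP2. The division of reads between that gene and TAP2 is uncertain.

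The genes of the immunoproteasome and its activator moved in the same direction as most of the 9 genes in each comparison. The immunoproteasome replaces subunits of the standard proteasome and yields peptides suited to class I. All 5 genes of the immunoproteasome and its activator were higher in MDA-MB-231 KD (median log2 fold change 0.39), and all 5 were lower in SUM159 KD (-0.72) and in BT549 OE (-2.24). Over all genes tested, 21.2% were higher and 16.5% lower in MDA-MB-231 KD, and 28.6% higher and 31.4% lower in SUM159 KD. In BT549 OE 70.6% were called, 35% lower. These shares are the background for the lists below too. PSMB9, a catalytic subunit whose gene lies beside TAP1, changed by 0.26 ± 0.060 on the log2 scale in MDA-MB-231 KD (adjusted p = 0.00153), by -0.72 ± 0.039 in SUM159 KD (adjusted p = 1.26e-13) and by -3.97 ± 0.053 in BT549 OE (adjusted p = 1.47e-25). PSMB8, another catalytic subunit, had 0.29, -0.76 and -3.45 in the same order, and PSME1, a subunit of the PA28 activator, had 0.39, -0.54 and -2.24. Each of these 9 values passed the test.

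Of 7 partners that fold heavy chains, edit peptides or trim them, 4 were higher and 1 lower in MDA-MB-231 KD, 1 higher and 6 lower in SUM159 KD, and 3 higher and 4 lower in BT549 OE. TAPBPL, the peptide editor related to tapasin, fell by 4.88 on the log2 scale in BT549 OE (adjusted p = 1.29e-19). PDIA3, the disulfide isomerase bound to tapasin, was instead higher there, at 1.36 ± 0.031 (adjusted p = 3.26e-21). Calreticulin (CALR), a chaperone of many glycoproteins, changed by -0.36 in BT549 OE and -0.38 in SUM159 KD. UGGT1, the glucosyltransferase that returns misfolded glycoproteins to calreticulin, was called higher in all 3 comparisons, at 0.18, 0.15 and 0.58 (adjusted p = 0.0407, 0.0468 and 1.62e-08).

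Factors that bind class I promoters were mostly lower in SUM159 KD and BT549 OE. Of 13 listed, 3 were higher and 4 lower in MDA-MB-231 KD, 11 were lower in SUM159 KD, and 1 was higher and 10 lower in BT549 OE. Over all genes tested, 31.4% were lower in SUM159 KD and 35% in BT549 OE. IRF1 changed by 0.45 ± 0.082 (log2) with KD in MDA-MB-231, by -2.10 ± 0.091 with KD in SUM159 and by -3.01 ± 0.068 with OE in BT549. For IRF2 these values were 0.34, -1.06 and -2.33, and all 6 were called. NFKB1, the p105 and p50 gene of NF-kB, was lower in all 3 comparisons, at -0.44, -1.93 and -0.75.

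Among 12 genes of the interferon receptor pathway, 2 were higher and 2 lower in MDA-MB-231 KD, 8 were lower in SUM159 KD, and 1 was higher and 9 lower in BT549 OE. IRF7, a factor of the interferon response, had a log2 fold change of -4.06 ± 0.092 in BT549 OE (adjusted p = 3.04e-21), while its values of -0.04 and -0.39 in the KD lines were not called (adjusted p = 0.831 and 0.0542). The interferon list and the promoter factor list overlap, and both hold IRF1.

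Genes related to class I by fold but not loaded by TAP divided between the lines in another way. MICA and MICB, stress-induced ligands of the NK cell receptor NKG2D, were higher in both KD lines and lower in OE. MICA had log2 fold changes of 0.51, 0.91 and -2.05, and MICB of 0.34, 0.32 and -1.78. MR1, which presents vitamin metabolites, fell by 2.65 in BT549 OE. Of 5 tested genes of this list, 2 were higher and 1 lower in MDA-MB-231 KD, 2 higher and 2 lower in SUM159 KD, and 1 higher and 4 lower in BT549 OE.

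MHC class II genes had few counts, with a summed normalized count of at most 116 in a library. Of 11 listed, 5 had a count and 3 were tested. The deposited counts hold no transcript with 0 in all 4 BT549 libraries. Genes without a count there could therefore not be seen in MDA-MB-231 or SUM159. HLA-DMA, the class II peptide editor, was the gene of this list called in SUM159 KD, at 1.24 ± 0.299 (adjusted p = 9.07e-04). CIITA, the class II transactivator related to NLRC5, and CD74, the invariant chain, were not called in any of the 3 comparisons. Of 12 unrelated genes of the MHC region on chromosome 6, 5 were higher and 3 lower in MDA-MB-231 KD (median log2 fold change 0.06), 3 higher and 8 lower in SUM159 KD (-0.16), and 2 higher and 6 lower in BT549 OE (-0.06). The KD effect was the higher in MDA-MB-231 for 8 of them and the lower for 2, against 27.7% and 23.2% of all genes tested. In BT549 OE the 3 with the smallest p were BRD2 (-0.76), ABCF1 (-0.62) and CSNK2B (0.32).

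**Figure D5:**
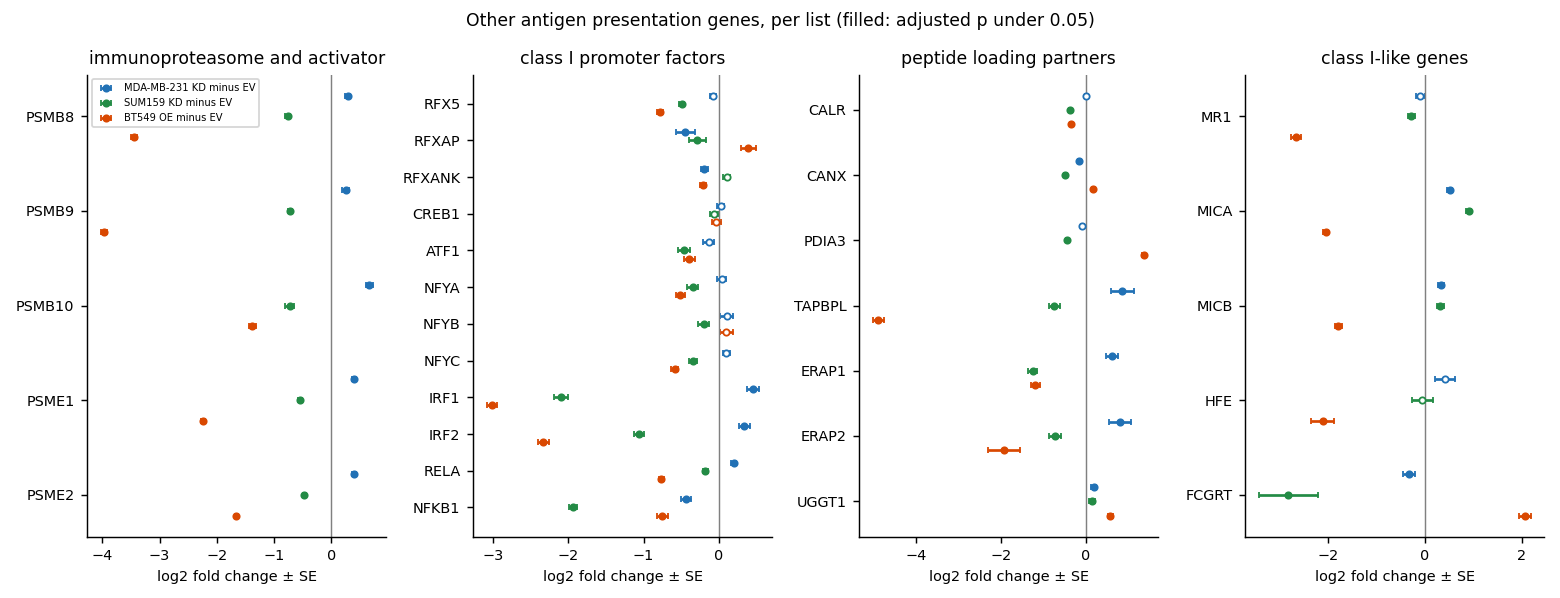
Log2 fold change with SE (horizontal axis, a separate range per panel) of other genes of the pathway in 4 lists (12 of the 13 promoter factors are drawn), with 1 color per comparison and filled points for an adjusted p under 0.05. The 5 immunoproteasome and activator genes lie right of 0 in MDA-MB-231 KD and left of 0 in SUM159 KD and BT549 OE, whereas the loading partners lie on both sides in BT549 OE.

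The genes outside the list with the profile most like the members' mean were APOL6 (Pearson r = 0.990), PSME1 (0.987), SUV39H1 (0.987), PSMB8 (0.985) and IFIH1 (0.984). The measure was the correlation of log2 CPM over the 12 libraries with the mean of the 9 centred profiles, among 12581 genes that averaged 50 counts or more per library. The 12 points share lines and groups, so these values describe likeness over 6 groups and carry no test. APOL6, an apolipoprotein L family gene, had mean normalized counts of 6566 in BT549 EV and 119 in BT549 OE, and IFIH1, the gene of the RNA sensor MDA5, of 1205 and 1.67. SUV39H1, a histone methyltransferase gene, had 2116 and 677. Against the mean of the other 8 members, the members themselves had r from 0.394 (TAPBP) and 0.593 (HLA-F) to 0.941 (NLRC5) and 0.945 (HLA-C).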

How the data were processed

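All 12 libraries were deposited by the authors in 1 table of expected counts, with a value for each Ensembl transcript and no normalization. Per the study's methods and the submitters' processing notes, reads were trimmed with Trimmomatic, aligned to GRCh38 with HISAT2, freed of PCR duplicates with SAMtools and analysed in Partek. Which program counted the reads, on which annotation and with which strand setting, is not given in the sources used here. The labels name a poly(A) library kit and the methods a stranded kit for total RNA depleted of rRNA, so which was used is unclear. Of the 201932 transcripts, 79.6% matched GENCODE 44 and held 99.2% to 99.4% of the counts of each library. In 5.08% of rows the 8 MDA-MB-231 and SUM159 columns held a missing mark, counted as 0, and for that reason the unit of these columns was recorded as other. The table lists 0 transcripts with 0 in all 4 BT549 libraries.

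Transcripts were summed per symbol and rounded to whole counts with Python 3.11.15 and pandas 2.3.3. TPM were computed from the unrounded values and the annotated lengths. edgeR 4.0.16 in R 4.3.3 (filterByExpr, TMM, quasi-likelihood test, 1 model of 6 group means, 6 residual degrees of freedom) tested 16538 genes, with Benjamini-Hochberg adjustment over all of them and a call at an adjusted p under 0.05. SE is the unshrunk log2 fold change over the square root of F. On simulated counts of these 16538 genes for BT549, all of 200 genes changed by 2-fold were recovered (100%), and 7.83% of calls were false, above the 0.05 threshold. The changed genes were drawn from those with a mean of at least 50 counts. All simulated libraries otherwise shared the same mean profile. In the data 70.6% of genes were called in BT549 OE, so the simulation does not cover a difference that wide. A count of 0 allows up to 3 counts, which covers counting error only. Motifs were searched on both strands, and shared windows were 100 bases long. All 12 columns of samples were used.

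The 9 genes, the pathway and marker lists, the promoter motifs and the tests were chosen with earlier results of these data known. Named genes were the members, TRMT112, the 3 genes of each list with the smallest p in BT549, genes called one way in all 3 comparisons, and the 5 most similar profiles. One gene that this rule names is not reported here, although the counts of its lists include it. Same-numbered replicates did not deviate together (correlations 0.003, -0.030 and 0.016), so no pairing was used. Alternatives were RLE scaling, library size only, DESeq2 1.42.0, tests without a filter, a stricter filter (50 counts on average), a replicate block, fits of each line by itself, the most abundant transcript, marked transcripts left out, each library left out and, added after seeing the data, a 2-fold size rule.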

Additional observations from a re-analysis of the deposited data

Results flagged for a closer look

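The KD effect differed between MDA-MB-231 and SUM159 for each of the 9 genes by the edgeR test of the difference itself, which called 50.9% of all genes. As MDA-MB-231 effect minus SUM159 effect on the log2 scale, the difference was 2.41 for HLA-B (adjusted p = 1.48e-21), 1.17 for HLA-C (1.16e-12), 0.70 for HLA-E (1.09e-12) and 2.43 for HLA-F (7.03e-11). It was 1.17 for TAP1 (adjusted p = 5.38e-14), 1.39 for TAP2 (8.49e-14), 0.87 for TAPBP (5.36e-13) and 0.54 for NLRC5 (1.24e-04). B2M had a difference of the other sign, -0.20 (adjusted p = 1.48e-05). In every one of these genes except B2M and TAP2, the 2 KD libraries of MDA-MB-231 both lay above their 2 controls. The share of all genes that did so was not counted, and 21.2% of all genes were called higher there. In SUM159 KD 7 of the 9 genes were called lower and 2 higher, against 31.4% and 28.6% of all genes.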

How the results depend on the processing

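Over 1287 recomputed log2 fold changes of the members, none changed direction where either value was called, 13 lost their call and 1 gained it. The gain was B2M in MDA-MB-231 KD with library size only (-0.09, adjusted p = 0.00179). The losses concerned HLA-F in MDA-MB-231 KD, NLRC5 (5 comparisons with its most abundant transcript, and SUM159 KD without KD replicate 1) and HLA-C in SUM159 KD. Leaving out each library in turn gave 6 to 7 members called in MDA-MB-231 KD, 8 to 9 in SUM159 KD and 9 in BT549 OE. With only the most abundant transcript, 11 neighbouring pairs of groups were not called in place of 6. Requiring a 2-fold change left 0 members called in MDA-MB-231 KD, 3 in SUM159 KD, 5 in the difference of KD effects and 5 between MDA-MB-231 EV and SUM159 EV. With the replicate block the counts were 7, 9 and 9 in MDA-MB-231 KD, SUM159 KD and BT549 OE, and the block changed no call of a member, although replicate numbers did not pair the libraries. Library size only shifted the median of all genes by -0.31 (BT549 EV minus MDA-MB-231 EV) and -0.21 (BT549 EV minus SUM159 EV). Depth limits the values of HLA-F (0 counts), HLA-B (63 to 72) and NLRC5 (97 to 123) in BT549 OE. The cause of these changes was not tested.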
